A study of Homo sapiens with 24 samples.

Results

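All cells that carried a QKI guide RNA were compared with control cells across a chase of 0, 4 and 8 h. The comparison set the 18 guide libraries against the 6 control libraries, out of 24 libraries in all, with the hour of chase as a factor. The guide libraries came from 3 genotypes of U2OS, a human osteosarcoma line: sgQKI+EV cells held an empty vector, QKI7-WT cells an add-back of the QKI7 isoform, and QKI7-dKH cells a QKI7 that by its label lacked the KH domain. The control genotype, sgNS+EV, combined a guide named sgNS with the empty vector. All groups received 5 µg/mL actinomycin D, a transcription blocker, together with 200 µM sodium arsenite, an oxidative stressor, for the labelled hours. Each of the 12 groups had 2 libraries of polyA RNA.

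The labels do not say whether targeted cells were 1 clone or a pool, and only 1 control genotype was set against the 3 guide genotypes. A difference shared by the guide lines therefore cannot be told apart from a difference between 1 control line and a set of derived lines. Nothing in the labels says that replicate libraries were separate cultures, so p-values measure the spread between these libraries.

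QKI is a STAR-family RNA-binding protein whose KH domain contacts RNA. It binds a core element with a nearby half-site, and is known for roles in splicing, mRNA stability and circular RNA formation, best studied in glia, muscle and mesenchymal cells. Its QKI7 isoform is mainly cytoplasmic. The series was set up to ask how QKI affects mRNA stability, and the comparison asks which transcript levels went with the guide whatever had been added back.

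Values are the deposited signal of 12547 endogenous rows, which the authors had scaled to ERCC spike-in RNAs as judged from the values. Read depth is unknown. What amount of cells or RNA the spike-in was matched to is not given in the sources used here, so fewer cells and less RNA per cell cannot be told apart. Summed endogenous signal without ribosomal RNA ran from 667540 to 1211400 per library, and guide and control libraries differed in its log2 by −0.0043 (exact permutation test within times, two-sided, p = 0.938). Mesenchymal markers were present, with mean signals of 3417 for VIM and 786 for SPARC, while COL1A2 and ALPL have no row in the table. The label calls the cells epithelial. Of 5 epithelial markers, CDH1 and KRT5 have no row, and EPCAM, KRT14 and CLDN4 had mean signals of 5.95, 5.43 and 7.91. PTPRC, CD3E, CD14, HBB, LYZ, ALB, APOA1 and TTR, which mark blood and liver cells, have no row either. Both control libraries at 4 h and the first QKI7-WT library at 4 h stood apart from the rest, with scores of 24, 17.3 and 19.1 on the third principal component, against −9.92 to 5.57 in the other libraries. The named genes that lose their call, and the counts of most gene lists, are therefore also given without 4 h.

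QKI itself (GRCh38, GENCODE 29, chromosome 6, 163414000 to 163578596, plus strand) was lower with the guide. Its row mixes the endogenous gene with any add-back construct, so it checks the labels best in sgQKI+EV cells. For each time the 6 guide libraries are given as their lowest, median and highest signal, and the 2 control libraries as both values. At 0 h QKI had 32.7, 46.9 and 60.4 in guide libraries, against 59.98 and 48.2 in control libraries. At 4 h it had 15.4, 23.7 and 50.5 in guide libraries, against 53.97 and 50.1 in control libraries. At 8 h it had 10.6, 17.9 and 19.1 in guide libraries, against 24.1 and 21.95 in control libraries. Guide and control libraries overlapped at 0 h through QKI7-WT and QKI7-dKH and at 4 h through QKI7-WT, while sgQKI+EV was below both control libraries at every time. The time-adjusted difference was -0.61 log2 (SE 0.16, limma with Benjamini-Hochberg adjustment over 12547 rows, adjusted p = 0.00853). It was -1.08 for sgQKI+EV, -0.23 for QKI7-WT and -0.51 for QKI7-dKH, and the guide genotypes differed among themselves (limma F test, adjusted p = 1.54e-05). The exact permutation test, two-sided with guide labels permuted within times, gave p = 0.00396. The same exact test gave −0.49 and p = 0.0913 without the first control library at 0 h and −0.56 and p = 0.0583 without the second. That test compares plain means, so a left-out library unbalances the times and these values mix guide with hour. The time-adjusted limma difference ran from −0.70 to −0.53 whichever library was left out, with an adjusted p of at most 0.0405. Without 8 h limma gave an adjusted p of 0.0642.

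As deposited, most genes that passed with the guide were lower, and most differences were small. In the limma fit of log2(signal + 1), 1446 of 12547 rows (11.5%) passed an adjusted p of 0.05, of which 292 (2.33%) were higher and 1154 (9.20%) lower. The median size among them was 0.27 log2, against a median SE of 0.07 over all rows. Differences of at least 1.5-fold were found for 9 higher and 55 lower rows, and of at least 2-fold for 1 higher and 3 lower rows. All guide libraries lay above both control libraries at all 3 times for 36 rows (0.287%) and below both for 237 rows (1.89%). Among the rows called lower, 20 repeated the values of another row, nearly all of them U1 and 5S RNA copies. RNU1-1 and RNA5S1 each fell by 0.82 log2, past 1.5-fold, so rows that repeat their values count among the 55. Of the 55 lower rows 28 had an annotated coding 3′ untranslated region, and of the 9 higher rows 7. Leaving out the 4 h libraries gave 135 higher and 717 lower rows, of which 652 were among the 1446.

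The split between directions depended on the scaling and on the genotypes included. Without sgQKI+EV, 793 rows were higher and 732 lower (52% of calls higher), so the excess of lower calls was gone. Without QKI7-dKH the excess grew, with 142 higher and 1766 lower (7.44% of calls higher). Without QKI7-WT 328 were higher and 1246 lower (20.8% higher). Scaling each library to its total without ribosomal RNA called 1014 higher and 2100 lower (24.8% of rows), with 32.6% of calls higher against 20.2% for the deposited values. The total of all endogenous rows gave 1169 higher and 1606 lower (42.1% higher), and quantile normalisation 1855 higher and 1787 lower (50.9% higher). No call made on the deposited values turned its sign under these scalings, and 1441 of the 1446 passed with the total without ribosomal RNA and 1367 with quantile normalisation. The median of all rows was −0.041 as deposited, −0.038 and −0.023 with these 2 totals, and 0.00086 with quantile normalisation. Such shifts are small beside the median call of 0.27 log2, so the kept signs test little. The bar plot of calls by setting shows both counts under each choice.

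**Figure D1:**
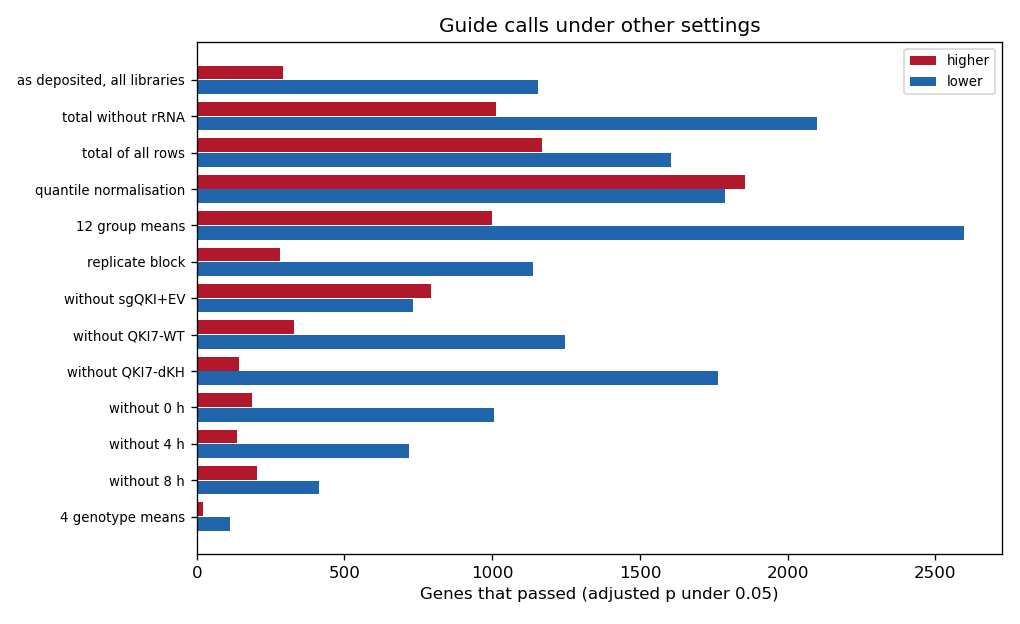
Number of rows that passed an adjusted p of 0.05 with the QKI guide relative to sgNS+EV (horizontal axis), higher in red and lower in blue, under each scaling, model or subset (vertical axis). As deposited, 292 rows were higher and 1154 lower; quantile normalisation called 1855 higher and 1787 lower.

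**Figure D2:**
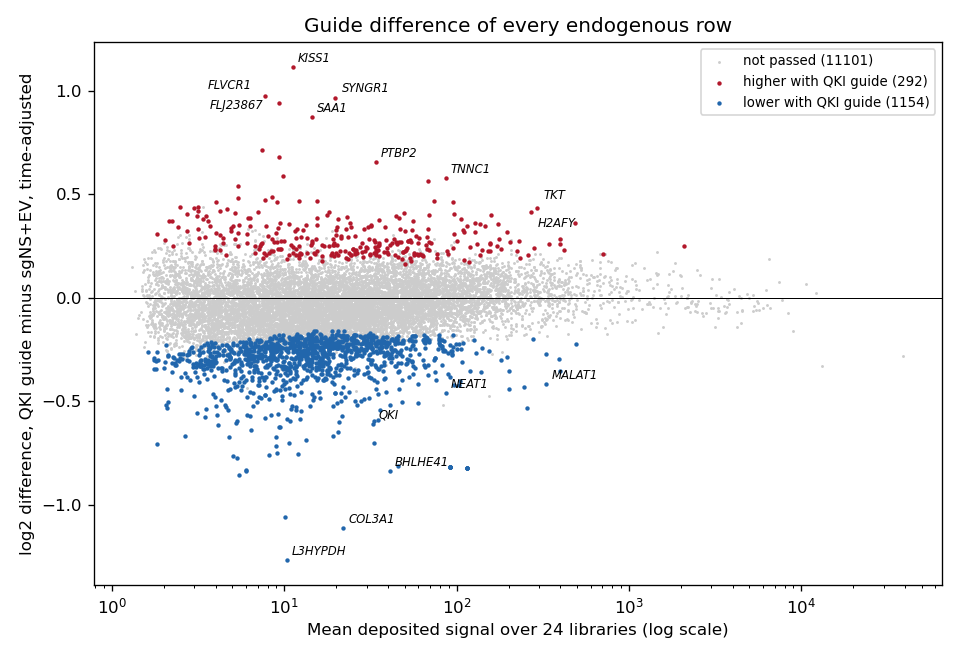
Each point is 1 endogenous row, with its mean deposited signal over 24 libraries on a log axis and its time-adjusted log2 difference, QKI guide minus sgNS+EV, on the vertical axis. Rows that passed are red (292 higher) or blue (1154 lower), and most lie within 0.5 log2 of 0.

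The 12 rows with the largest rise were KISS1, FLVCR1, SYNGR1, FLJ23867, SAA1, NRG1, PTBP2, LINC01173, TNNC1, SERPINB7, ANXA8L1 and LRRC15, among rows that passed, had a mean signal of at least 5 and kept 1 sign in all 9 guide groups. Their differences ran from 0.47 to 1.12 log2. The choice of rows fixes their direction, so their values describe them and test nothing further.

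KISS1, the precursor of the kisspeptin signalling peptides (chromosome 1, 204190341 to 204196486, minus strand), had the largest rise. At 0 h it had 8.93, 12.2 and 17.9 in guide libraries, against 7.63 and 4.79 in control libraries. At 4 h the signal was 9.17, 13.9 and 19.9 in guide libraries, against 4.11 and 4.66 in control libraries, and at 8 h 9.44, 11.6 and 16.3, against 5.69 and 5.89. The libraries did not overlap at any time, and control values also spread widely at 0 h. The difference was 1.12 log2, or 2.17-fold (SE 0.12, limma adjusted p = 6.1e-08), and it ranged from 0.93 in QKI7-WT to 1.45 in QKI7-dKH.

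FLVCR1, a membrane transporter of heme and choline (chromosome 1, 212858255 to 212899363, plus strand), was the next. It had 10.4, 13.1 and 14.9 at 0 h in guide libraries, against 5.66 and 5.43 in control libraries. At 8 h it had 5.41, 6.05 and 7.66 in guide libraries, against 2.85 and 2.87 in control libraries. Every guide library was well above both controls of its hour, also at 4 h. The difference was 0.98 log2 (SE 0.07, limma adjusted p = 1.15e-12), with 0.87, 0.98 and 1.08 for sgQKI+EV, QKI7-WT and QKI7-dKH.

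SYNGR1, a membrane protein of synaptic-type vesicles (chromosome 22, 39349925 to 39385588, plus strand), rose with the smallest SE of the 12. Guide libraries had 29.2, 32.9 and 33.8 at 0 h, against 14.6 and 15.3 in control libraries. They had 18.4, 21.3 and 22.7 at 4 h, against 9.08 and 9.88 in control libraries, and 13.2, 14.8 and 17.5 at 8 h, against 8.57 and 8.09. The groups did not overlap at any time, and the guide genotypes were not separated from each other (limma F test, adjusted p = 0.23). The difference was 0.96 log2 (SE 0.06, limma adjusted p = 2.85e-13).

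PTBP2, a polypyrimidine-tract splicing repressor best known in neurons (chromosome 1, 96721665 to 96823738, plus strand), was higher with the guide. It had 38.5, 53.5 and 64.2 at 0 h in guide libraries, against 29.7 and 28.5 in control libraries. At 4 h the values were 30.6, 38.2 and 44.3 in guide libraries, against 28.98 and 27.1 in control libraries, and at 8 h 16.4, 21.9 and 29.5, against 13.6 and 11.9. The groups stayed apart at each time, most narrowly at 4 h. Its difference was 0.66 log2 (SE 0.10, limma adjusted p = 1.83e-05), with 0.43 in QKI7-WT, 0.63 in sgQKI+EV and 0.90 in QKI7-dKH (add-back F test, adjusted p = 0.000723). Its paralogs did not pass: PTBP1 differed by 0.03 log2 and PTBP3 by -0.09 log2, both looked at after the values were seen.

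TNNC1, the slow skeletal and cardiac troponin C (chromosome 3, 52451102 to 52454070, minus strand), also rose. Guide libraries had 83.3, 96.4 and 137 at 0 h, against 81.8 and 79.1 in control libraries. At 4 h they had 90.9, 110 and 130, against 65.4 and 58.2 in control libraries. The lowest guide library at 0 h exceeded the higher control by little. The difference was 0.58 log2 (SE 0.10, limma adjusted p = 0.000146), and it ran from 0.32 in sgQKI+EV to 0.88 in QKI7-dKH.

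SAA1, an acute-phase serum amyloid A protein, had 12.8, 18.2 and 30.7 at 0 h in guide libraries, against 8.96 and 7.75 in control libraries. NRG1, an EGF-family ligand of ERBB receptors, had 5.64, 7.94 and 12.7 at 0 h in guide libraries, against 3.90 and 4.81 in control libraries. Both were highest in QKI7-dKH cells, where SAA1 differed from control by 1.39 log2 and NRG1 by 1.12. The time-adjusted differences were 0.88 log2 for SAA1 (SE 0.15, limma adjusted p = 0.000146) and 0.71 for NRG1 (SE 0.12, adjusted p = 0.000115). FLJ23867 rose by 0.94 log2 (SE 0.09, adjusted p = 2.41e-09).

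Among the smaller rises, SERPINB7, a serine protease inhibitor family member, differed by 1.00 log2 in QKI7-dKH and 0.12 in QKI7-WT. Its guide and control libraries overlapped at 4 and 8 h, and it did not pass without 8 h (limma adjusted p = 0.0976). LRRC15, a leucine-rich repeat membrane protein of mesenchymal cells, rose by 0.47 log2 and ANXA8L1, an annexin, by 0.49, and neither overlapped with control at any time. ANXA8L1 has near-identical copies, so its signal is uncertain. The long non-coding RNA LINC01173 rose by 0.59 log2 but overlapped with control at 4 and 8 h, and did not pass without 0 h (limma adjusted p = 0.0938).

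The 12 rows with the largest fall, chosen by the same rule, included L3HYPDH, COL3A1, FKBP7, TRADD, BHLHE41, RNU1-1, RNA5S1, DDIT4, HOOK3 and IGFL3. Their differences ran from -1.27 to -0.77 log2.

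L3HYPDH, a hydroxyproline dehydratase (chromosome 14, 59460363 to 59484430, minus strand), fell most. At 0 h it had 8.84, 10.3 and 12.7 in guide libraries, against 20.6 and 20.7 in control libraries. At 4 h it had 5.23, 6.38 and 8.11 in guide libraries, against 21.2 and 20.97 in control libraries, and at 8 h 4.44, 5.38 and 6.21, against 14.98 and 14.8. No guide library reached a control library at any hour. The difference was -1.27 log2, or 0.416 of the control level (SE 0.09, limma adjusted p = 1.15e-12), with -1.29, -1.27 and -1.24 for sgQKI+EV, QKI7-WT and QKI7-dKH.

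COL3A1, the type III fibrillar collagen chain (chromosome 2, 188974320 to 189012746, plus strand), had 20.6, 26.3 and 27.5 at 0 h in guide libraries, against 51.8 and 53.2 in control libraries. At 4 h the signal was 10.5, 14.6 and 17.5 in guide libraries, against 29.3 and 28.5 in control libraries, and at 8 h 9.38, 12.4 and 13.8, against 29.6 and 30.5. The groups were far apart at each time, and control values at 4 and 8 h were close. The difference was -1.11 log2 (SE 0.09, limma adjusted p = 2.15e-11). It was largest in QKI7-dKH at -1.38 and smallest in QKI7-WT at -0.92 (add-back F test, adjusted p = 1.54e-05).

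**Figure D3:**
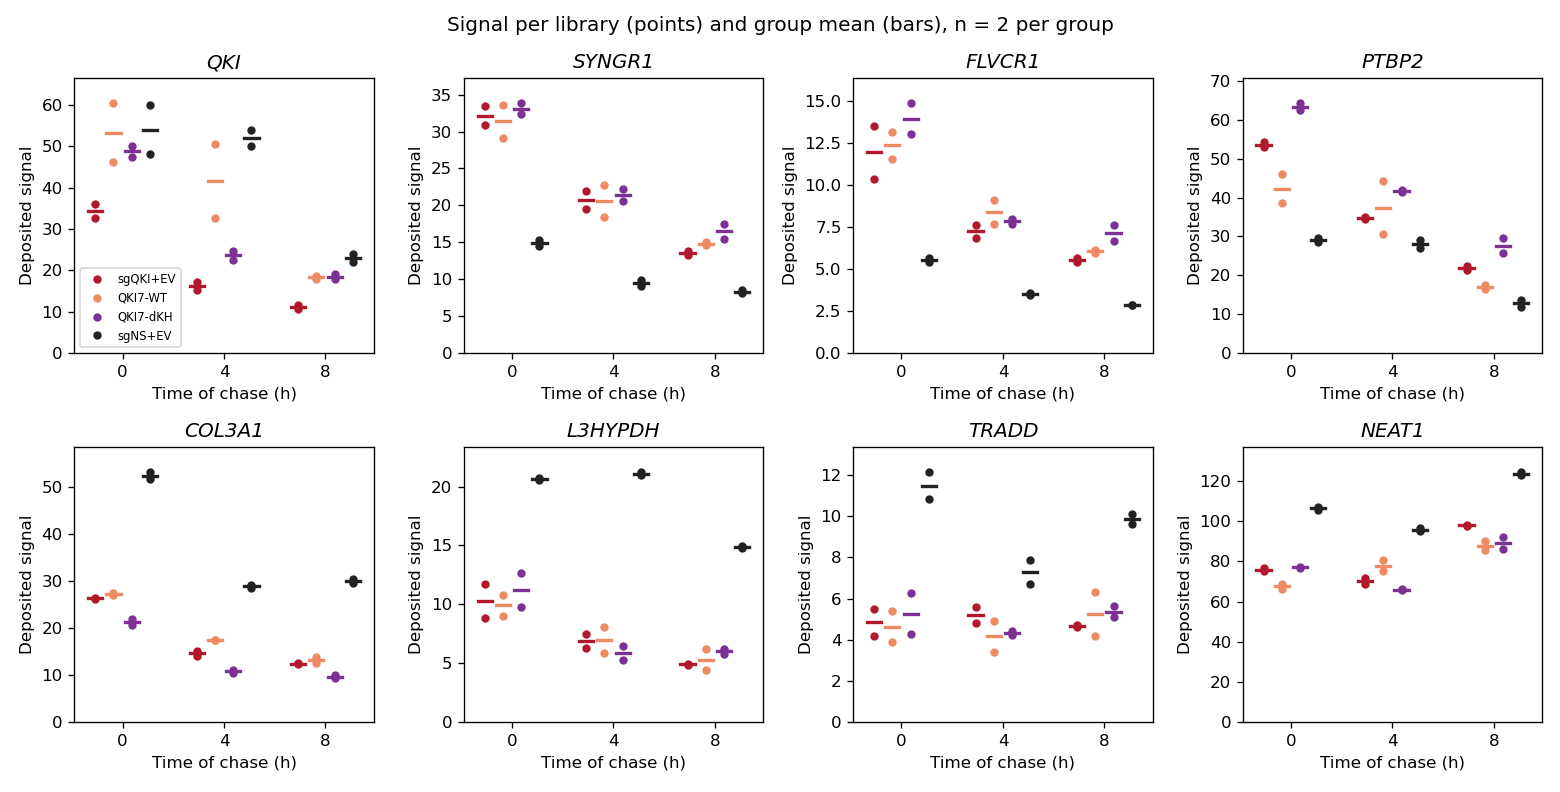
Deposited signal (vertical axis, from 0) against hour of chase (horizontal axis) for 8 transcripts, with 1 point per library and a bar at the mean of each group of 2, for sgQKI+EV, QKI7-WT, QKI7-dKH and sgNS+EV from left to right. SYNGR1, FLVCR1 and PTBP2 lie above control at each time, COL3A1, L3HYPDH, TRADD and NEAT1 below, and QKI overlaps with control at 0 and 4 h.

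DDIT4, an inhibitor of the growth kinase complex mTORC1 that cells induce under stress, had 103, 108 and 118 at 0 h in guide libraries, against 160 and 164 in control libraries. At 4 h it had 4.79, 5.56 and 7.30 in guide libraries, against 12.4 and 13.8 in control libraries. Its signal dropped steeply between these times in every genotype, and guide libraries were the lower at each. The difference was -0.81 log2 (SE 0.08, limma adjusted p = 3.59e-09). BHLHE41, a helix-loop-helix repressor linked to the circadian clock, had 53, 56.6 and 60.6 at 0 h in guide libraries, against 89.7 and 84.6 in control libraries. At 8 h BHLHE41 had 16.7, 18.9 and 19.9 in guide libraries, against 34.6 and 35.9 in control libraries. The groups did not overlap, and the difference was -0.84 log2 (SE 0.08, limma adjusted p = 1.85e-09).

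TRADD, the adaptor of the tumour necrosis factor receptor, had 3.87, 4.84 and 6.26 at 0 h in guide libraries, against 12.1 and 10.8 in control libraries. Its guide values stayed near the same level through the chase, at 4.18, 4.91 and 6.34 at 8 h, against 9.61 and 10.1 in control libraries. The difference was -0.84 log2 (SE 0.09, limma adjusted p = 2.71e-08). FKBP7, a prolyl isomerase of the endoplasmic reticulum, fell by 0.86 log2, and HOOK3, an adaptor between dynein and cargo, by 0.77. Neither overlapped with control at any time. IGFL3, of the insulin-growth-factor-like family, fell by 0.77 and overlapped with control at 4 h.

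U1 and 5S RNA differed most at 0 h, though a change with time did not pass for RNU1-1 or RNA5S1 (limma F test, adjusted p = 0.145 and 0.247). RNU1-1, a U1 spliceosomal RNA, had 30.9, 62.4 and 120 at 0 h in guide libraries, against 198 and 171 in control libraries, but 80.3, 124 and 163 at 8 h, against 211 and 143. RNA5S1, a 5S ribosomal RNA, had 28.2, 67.6 and 101 at 0 h in guide libraries, against 176 and 190 in control libraries. Guide and control overlapped at 4 and 8 h for both. Without 0 h neither passed (limma adjusted p = 0.0501 for RNU1-1 and 0.206 for RNA5S1), and RNA5S1 did not pass when either control library at 0 h was left out (adjusted p = 0.0571 and 0.0531). These RNAs lack a polyA tail and have many copies, and ribosomal RNA made up 5.38 ± 2.42% of signal in guide libraries and 6.40 ± 3.42% in control libraries (SD, n = 18 and 6, exact permutation test within times, two-sided, p = 0.284). The part of ribosomal RNA carry-over in the fall of RNU1-1 and RNA5S1 was not tested.

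The rule chose these 24 rows for passing, for size and for 1 sign in all 9 groups, so counts on the guide difference describe them and support nothing. Of these rows, 22 passed in each genotype when the 3 were fitted one by one against the same 6 control libraries, and 19 did not overlap with control at any time. The level differed between guide genotypes for 11 of the 24 (limma F test within the 18 guide libraries), beside 5542 of all rows (44.2%). With the total without ribosomal RNA it differed for 9 of the 24, beside 1544 of all rows (12.3%), and leaving out 1 library as deposited gave 3592 to 7670 rows. L3HYPDH, FKBP7 and TRADD were among those that did not pass this test, with adjusted p from 0.743 to 0.887, which does not show that the guide genotypes were alike. All 24 passed without 4 h, and 23 passed whichever library was left out, the exception being RNA5S1. With the 2 libraries and 3 times of each genotype averaged to 1 value, 132 of all rows passed and TNNC1 did not (limma adjusted p = 0.0674). That fit sets 3 guide values against 1 control value and has no measure of the spread between control lines. Outside the 24 rows, up to 4 passing members of each gene list were named. Of these, QKI, BTG2, LUM, OSGIN1, GDF15, JUNB, PIM1 and EGR1 kept their call in that fit. The others lost it, WDR4, H2AFY, NEAT1, MALAT1 and TKT among them.

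**Figure D4:**
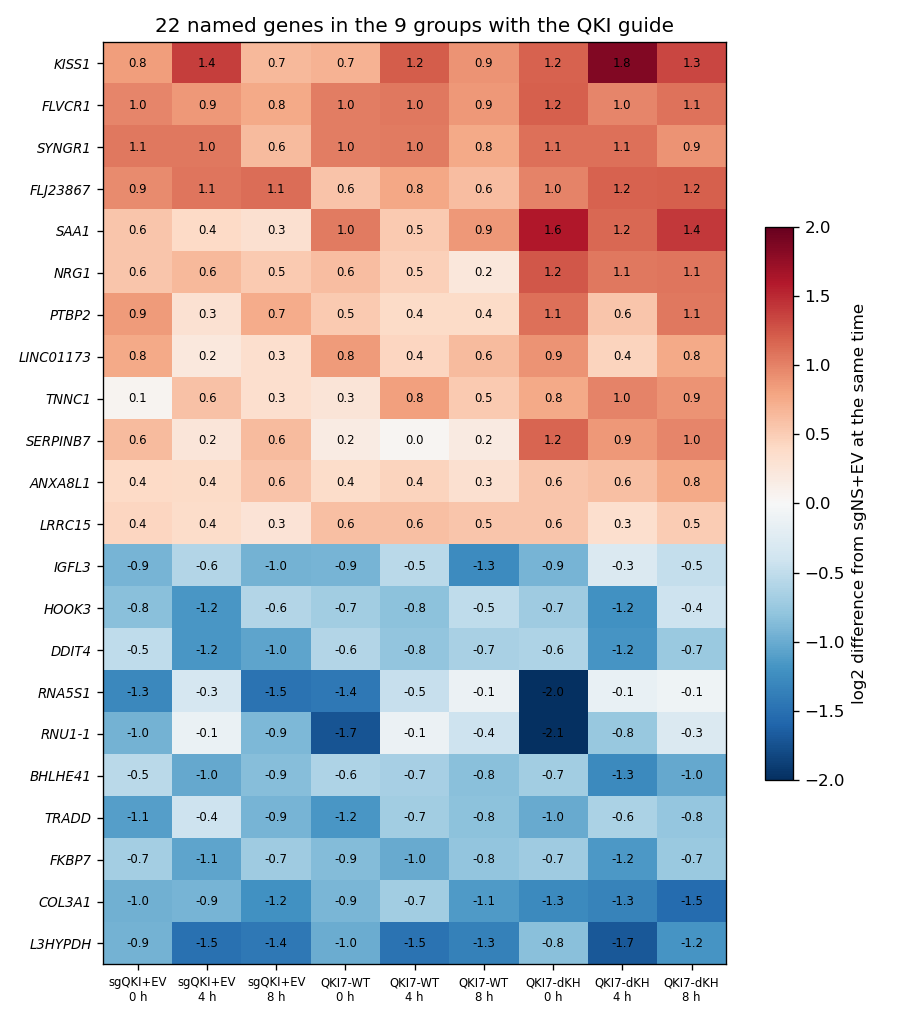
Log2 difference from sgNS+EV of the same hour for 22 of these rows (vertical axis) in the 9 guide groups (horizontal axis), printed in each cell and coloured from −2 to 2. The upper 12 rows are positive and the lower 10 negative in every group, as their choice requires; SAA1, NRG1 and SERPINB7 are strongest in QKI7-dKH, and RNU1-1 and RNA5S1 differ most in QKI7-dKH at 0 h.

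As deposited, genotypes differed in how many rows passed. Averaged over times, sgQKI+EV had 215 rows higher and 5520 lower than control (45.7% passed), QKI7-WT 717 higher and 1305 lower (16.1%), and QKI7-dKH 2505 higher and 968 lower (27.7%). The median of all rows was −0.14, −0.03 and 0.04 log2 for sgQKI+EV, QKI7-WT and QKI7-dKH. These 3 comparisons share their control libraries. With the total without ribosomal RNA the counts were closer and their order was another. They were 1282 higher and 2093 lower for sgQKI+EV (26.9%), 754 and 3026 for QKI7-WT (30.1%), and 1638 and 2462 for QKI7-dKH (32.7%), so that lower calls also outnumbered higher ones in QKI7-dKH. Of the 1446 rows called over all guide cells, 118 higher and 669 lower ones passed in each genotype. Of the same calls, 473 (32.7%) differed between guide genotypes, beside 44.2% of all rows. The fit that made the calls disfavours such rows, because its residual holds the spread between add-backs. The sign was the same in all 9 groups for 154 higher and 776 lower calls, with 1218 of all rows (9.71%) having 1 sign throughout.

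By hour, guide cells had 18 rows higher and 80 lower than control at 0 h, 942 higher and 1572 lower at 4 h, and 16 higher and 263 lower at 8 h. Of all 12547 rows, 0.143% were higher and 0.638% lower at 0 h, 7.51% higher and 12.5% lower at 4 h, and 0.128% higher and 2.10% lower at 8 h. Scaling to the total without ribosomal RNA gave 293 and 249 at 0 h, 1055 and 5361 at 4 h, and 321 and 508 at 8 h. The median of all rows at 4 h was then −0.15 log2, beside −0.05 as deposited. A change of the guide difference with time passed for 5 rows as deposited (limma F test, 0.0399%, with 2285 at an unadjusted p under 0.05). With the total without ribosomal RNA 4096 rows passed, and leaving out the first QKI7-WT library at 4 h gave 1888, so this count rests on the scaling and on single libraries. No row passed without the first control library at 4 h (limma, 825 at an unadjusted p under 0.05), without the second (1591) or without the second control library at 8 h (1575), and so the 5 calls were lost in each case. The 5 rows were COL1A1, the type I collagen chain, the histone H4 genes HIST4H4, HIST2H4A and HIST2H4B, the last 2 with identical values, and MRPL55, a mitochondrial ribosomal protein. COL1A1 had 368, 449 and 522 at 0 h in guide libraries, against 535 and 585 in control libraries, but 166, 202 and 224 at 4 h, against 150 and 149. At 8 h COL1A1 had 109, 117 and 132 in guide libraries, against 163 and 182 in control libraries. It was thus below control at 0 and 8 h and above it at 4 h, where the control libraries stood apart.

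Gene lists are described by their counts and median beside those of all rows, of which 2.33% were higher and 9.20% lower with a median of −0.04 log2. At an unadjusted p under 0.05 in limma, 848 of all 12547 rows were higher and 2431 lower. List counts at that threshold are to be read beside these. The lists were chosen with earlier results of these data known. Fewer rows passed without 8 h (618) than without 4 h (852). Of named list genes that passed without 4 h, GLI1, PAN2, ZFP36L1, SPP1, FJX1, IRF9 and UBE2L6 did not pass without 8 h. Nor did DDIT3, SESN1, CRYAB, ALDOC, IER2, NDUFV3 and CD68. Over these genes the limma adjusted p without 8 h ran from 0.0525 for PAN2 to 0.275 for UBE2L6. Of 41 measured extracellular matrix and mesenchymal genes, 2 rose and 9 fell, with a median of −0.10 log2 (2 and 11 without 4 h, COL8A1 and FBN1 being lost at adjusted p = 0.112 and 0.109). LUM, a keratan sulphate proteoglycan of collagen matrix, had 20.01, 24.3 and 33.02 at 0 h in guide libraries, against 35.6 and 32.4 in control libraries, and 15.9, 19.8 and 26.3 at 4 h, against 34.2 and 31.4. Its libraries overlapped at 0 h only, and its difference was -0.57 log2 (SE 0.10, limma adjusted p = 8.48e-05). TNC, FN1, COL5A2, MMP2, MMP7, FBN1 and COL8A1, which encode matrix proteins and matrix proteases, also fell. NID1, a basement membrane linker, went the other way, with 103, 122 and 142 at 0 h in guide libraries, against 88.5 and 94.3 in control libraries, a difference of 0.46 log2 (SE 0.08, limma adjusted p = 6.3e-05). S100A4, a calcium-binding protein of mesenchymal cells, rose by 0.40 log2.

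Of 7 measured osteoblast-lineage regulators, 3 fell and none rose (limma, 0 higher and 3 lower at an unadjusted p under 0.05): MSX2 by 0.33 log2, SPP1 by 0.33 and RUNX2, the osteoblast master factor, by 0.28 (limma adjusted p = 0.00697, 0.00794 and 0.0199). Without 4 h MSX2 and RUNX2 did not pass (adjusted p = 0.0508 and 0.213), and the list median was −0.02. Without 8 h MSX2 and SPP1 did not pass (limma adjusted p = 0.141 and 0.108). Outside the lists, and chosen after their values were seen, SNAI2, an epithelial-mesenchymal transition factor, differed by -0.65 log2, SOX9, a chondrocyte factor, by -0.41, and PDGFRA, a growth factor receptor, by -0.47 (limma adjusted p = 1.06e-05, 0.00027 and 3.01e-05). Guide libraries had 28.1, 33.9 and 36.02 of SNAI2 at 0 h, against 49.3 and 42.99 in control libraries. All 3 lay below control at each time. STRA6, the retinol transporter, fell by 0.76 log2, the actin-binding TAGLN rose by 0.47, and the nucleolar proteins BOP1 and CCDC86 rose by 0.40 and 0.38, all 4 also chosen after their values were seen. BOP1 did not pass without 4 h (adjusted p = 0.0932).

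Of 28 p53 targets, 7 fell and none rose (13 lower and none higher at an unadjusted p under 0.05), with a median of −0.14 log2, and 7 fell without 4 h, when CCNG1 and SESN2 did not pass (adjusted p = 0.139 and 0.165). GDF15, a secreted stress cytokine, had 15.4, 17.5 and 19.2 at 0 h in guide libraries, against 28 and 27.8 in control libraries, and 2.69, 3.64 and 4.58 at 4 h, against 7.76 and 7.06. The groups did not overlap, and GDF15 fell by 0.75 log2 (SE 0.09, limma adjusted p = 1.63e-07). BTG2, an antiproliferative adaptor of deadenylation, differed by -0.15 log2 at 0 h and -0.73 at 8 h, and by -0.49 over all times (SE 0.08, adjusted p = 7.12e-05). A change with time did not pass for BTG2 as deposited (limma F test, adjusted p = 0.145). It passed with the total without ribosomal RNA (0.00506). TP53INP1, SESN1, CCNG1, SESN2 and BBC3 were the others that fell. GDF15, SESN2 and BTG2 are also in other lists here.

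Several more genes that fell were chosen after their values were seen. SESN3, a sestrin that limits mTORC1, had 24.1, 27.04 and 29.04 at 0 h in guide libraries, against 38.98 and 33.97 in control libraries, and 10.7, 11.6 and 18.5 at 4 h, against 26.5 and 25.7. KLHL24, a ubiquitin ligase adaptor, had 11.4, 12.95 and 14.3 at 0 h in guide libraries, against 18.6 and 17.5 in control libraries. Neither overlapped with control at any time. SESN3 differed by -0.67 log2, KLHL24 by -0.62, BMF, a pro-apoptotic BH3 protein, by -0.57, YPEL3, a small zinc-binding protein, by -0.54, and HBP1, a transcriptional repressor, by -0.49 (limma adjusted p from 3.12e-08 to 2.34e-06).

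Among 22 immediate-early and labile inflammatory mRNAs, 7 fell and 2 rose, with a median of −0.13 log2 (5 and 2 without 4 h). JUNB, an AP-1 subunit, had 36.3, 41.9 and 46.6 at 0 h in guide libraries, against 52.8 and 51.8 in control libraries, and 6.36, 7.59 and 9.26 at 4 h, against 12.1 and 12.4. EGR1, a zinc-finger immediate-early factor, had 35.5, 37.3 and 40 at 0 h in guide libraries, against 46.3 and 45.9 in control libraries. Both were below control at each time, already at 0 h. JUNB differed by -0.52 log2 (SE 0.07, limma adjusted p = 2.65e-06) and EGR1 by -0.49 (SE 0.08, adjusted p = 2.64e-05). PIM1, a survival kinase, differed by -0.14 log2 at 0 h, by -0.70 at 8 h and by -0.51 over all times (SE 0.07, limma adjusted p = 6.46e-06). A change with time did not pass for PIM1 as deposited (limma F test, adjusted p = 0.138). It passed with the total without ribosomal RNA (0.00352). IER2, IER3, KLF10 and IL11 also fell, and FOSL1, another AP-1 subunit, and CCL2, a chemokine, rose. IER3, KLF10 and IL11 did not pass without 4 h (adjusted p = 0.361, 0.152 and 0.409).

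Of 22 long non-coding RNAs, 4 fell and 1 rose, with a median of −0.04 log2 (6 and 0 without 4 h). NEAT1, the scaffold of nuclear paraspeckles (chromosome 11, 65422774 to 65445540, plus strand), had 66.5, 75.9 and 77.3 at 0 h in guide libraries, against 107 and 106 in control libraries, and 85.5, 91.2 and 98.4 at 8 h, against 123 and 124. MALAT1, an RNA of nuclear speckles, had 244, 279 and 301 at 0 h in guide libraries, against 401 and 385 in control libraries. NEAT1 stayed apart at each time, while MALAT1 overlapped at 4 h through the highest guide library. NEAT1 differed by -0.46 log2 (SE 0.05, limma adjusted p = 2.19e-07) and MALAT1 by -0.41 (SE 0.07, adjusted p = 5.45e-05). HOTAIR and TUG1 also fell, HOTAIR not passing without 4 h (adjusted p = 0.0906), and SNHG15, a snoRNA host transcript, rose by 0.38 log2 in this fit but did not pass without 4 h (adjusted p = 0.157).

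Of 12 genes linked to QKI in earlier work, 2 rose and 3 fell, with a median of −0.08 log2 (1 and 1 without 4 h). H2AFY, the macroH2A histone whose splicing QKI regulates, had 285, 322 and 381 at 0 h in guide libraries, against 233 and 247 in control libraries. It stayed above control at each time, with a difference of 0.41 log2 (SE 0.06, limma adjusted p = 2.57e-05). CCND1, the G1 cyclin, rose by 0.26 and ADD3, a membrane skeleton adducin, differed by -0.23 (adjusted p = 0.0122 and 0.0143). Neither passed without 4 h (adjusted p = 0.115 and 0.132). GLI1, the Hedgehog transcription factor, fell by 0.27, and CDKN1B, a cyclin kinase inhibitor, was the third and did not pass without 4 h (adjusted p = 0.629). Gene-level signal does not show isoforms, so splicing was not measured. QKI was the only member that passed of 16 STAR-family and neighbouring KH proteins, with a list median of −0.03 log2 (3 higher and 4 lower with the total without ribosomal RNA). SF1 differed by 0.10 log2 and KHDRBS1 by -0.05, both named after their values were seen. SF1 passed with the total without ribosomal RNA (limma adjusted p = 0.00617). Of 38 PTB, SR, hnRNP and other splicing regulators, PTBP2 and SRSF7 rose and none fell (limma, 6 higher and 0 lower at an unadjusted p under 0.05), with a median of 0.01 log2 (1 and 0 without 4 h). SRSF7 did not pass without 4 h (adjusted p = 0.294) or in 15 of 24 fits that each left out 1 library (up to 0.133).

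Of 29 NRF2 and antioxidant genes, 4 rose and 4 fell, with a median of 0.10 log2 (5 and 4 without 4 h). OSGIN1, an oxidative stress-induced growth inhibitor, had 13.3, 16.5 and 18.1 at 0 h in guide libraries, against 11.4 and 11.4 in control libraries. TKT, transketolase of the pentose phosphate pathway, had 304, 350 and 384 at 4 h in guide libraries, against 212 and 212 in control libraries. OSGIN1 did not overlap at any time and TKT overlapped at 8 h. OSGIN1 rose by 0.47 log2 (SE 0.06, limma adjusted p = 1.36e-06) and TKT by 0.44 (SE 0.07, adjusted p = 5.22e-05). TRIM16 and TRIM16L, near-identical neighbours in sequence whose reads may be split, rose as well. SLC7A11, AKR1C3, AKR1C1 and HMOX1 fell. TRIM16L, SLC7A11 and AKR1C1 did not pass without 4 h (adjusted p = 0.362, 0.429 and 0.136). Of 32 integrated stress response genes and tRNA synthetases, SLC7A5 and MTHFD2 rose and DDIT4, GDF15, DDIT3 and SESN2 fell, with a median of 0.05 log2 (0 and 4 without 4 h). SLC7A5, MTHFD2 and SESN2 did not pass without 4 h (adjusted p = 0.131, 0.0896 and 0.165).

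Of 51 mRNA decay factors, EXOSC5, an exosome subunit, rose, and BTG2, PAN2, ZFP36L1, ZFP36L2 and DCP1B fell, with a median of −0.02 log2 (0 and 3 without 4 h). EXOSC5, ZFP36L2 and DCP1B did not pass without 4 h (adjusted p = 0.163, 0.375 and 0.125). Among 19 m7G and cap factors, WDR4, the partner of the tRNA methyltransferase METTL1, rose, with 12.9, 16.4 and 19.5 at 4 h in guide libraries, against 9.46 and 11.7 in control libraries. Its libraries overlapped at 0 h, and the difference was 0.35 log2 (SE 0.08, limma adjusted p = 0.00159). METTL1 differed by 0.15 log2 and did not pass (adjusted p = 0.156), though it passed with the total without ribosomal RNA (0.04). EIF4E3, a cap-binding protein, fell by 0.24, but did not pass without 4 h (adjusted p = 0.335, the list then having 1 higher and 0 lower) or in 12 of 24 fits that each left out 1 library (up to 0.181). None of 29 stress granule proteins passed (limma, with 2 higher and 5 lower at an unadjusted p under 0.05, and 3 higher and 5 lower with the total without ribosomal RNA), and G3BP1, the granule scaffold, differed by 0.03 log2.

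Of 30 cholesterol and fatty acid synthesis genes, 3 rose, FASN and MVK among them, and none fell (limma, 6 higher and 0 lower at an unadjusted p under 0.05), with a median of 0.05 log2. FASN, the fatty acid synthase, differed by 0.79 log2 at 4 h and 0.17 at 0 h. A change with time did not pass for FASN as deposited (limma F test, adjusted p = 0.161). It passed with the total without ribosomal RNA (0.0432). Without 4 h only 1 of the 30 passed, which was neither FASN nor MVK (limma adjusted p = 0.291 for FASN and 0.0932 for MVK). Of 23 interferon-stimulated and antigen presentation genes, STAT2, IRF9, IFIT2 and UBE2L6 fell and IFI44 rose, with a median of −0.05 log2 (1 higher and 3 lower without 4 h). IFIT2 did not pass without 4 h (adjusted p = 0.0734), and UBE2L6 did not pass in 7 of 24 fits that each left out 1 library (up to 0.116). STAT2 and IRF9, which act in 1 complex downstream of interferon, differed by -0.28 and -0.25 log2. Of 21 YAP and TAZ targets, MYOF and FJX1 rose and DLC1 and PTPN14 fell, with a median of 0.01 log2 (1 and 0 without 4 h, median −0.02). MYOF, DLC1 and PTPN14 did not pass without 4 h (adjusted p = 0.0664, 0.323 and 0.241), and PTPN14 did not pass in 17 of 24 fits that each left out 1 library (up to 0.125).

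Of 24 glycolysis and hypoxia genes, PFKP rose and ALDOC and P4HA1 fell, with a median of 0.02 log2. Without 4 h the list had 0 higher and 3 lower with a median of −0.07, and PFKP and P4HA1 did not pass (adjusted p = 0.274 and 0.105). Of 30 chaperones HSPA1A and HSPE1 rose and CRYAB fell, with a median of 0.06 log2. Without 4 h the list had 0 higher and 1 lower, and HSPA1A and HSPE1 did not pass (adjusted p = 0.239 and 0.0793). HSPE1 also did not pass in 16 of 24 fits that each left out 1 library (up to 0.154).

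Replication, mitotic and ribosomal protein lists had medians of 0.06, −0.06 and −0.03 log2. By limma, no member passed of 44 replication genes (5 higher and 0 lower at an unadjusted p under 0.05), of 37 mitotic genes (0 and 6) and of 77 cytosolic ribosomal protein mRNAs (0 and 1). Of all 12547 rows, 848 were higher and 2431 lower at that unadjusted threshold. With the total without ribosomal RNA these became 14 higher and 3 lower for replication, 2 and 9 for mitosis and 2 and 9 for ribosomal proteins. Without 4 h 1 ribosomal protein mRNA was lower, with a list median of −0.105 log2, and no replication or mitotic gene passed. NDUFV3 was the only 1 of 65 respiratory chain mRNAs that passed, and it fell by 0.27 log2 (11 higher and 3 lower with the total without ribosomal RNA). Of the other cell type markers, none of 5 measured epithelial genes passed (limma, 2 higher and 0 lower at an unadjusted p under 0.05), the 1 measured hepatocyte gene did not pass (unadjusted p also above 0.05), and of 2 measured blood genes CD180 rose and CD68 fell. CD180 overlapped with control at 4 and 8 h and did not pass without 0 h (limma adjusted p = 0.174).

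**Figure D5:**
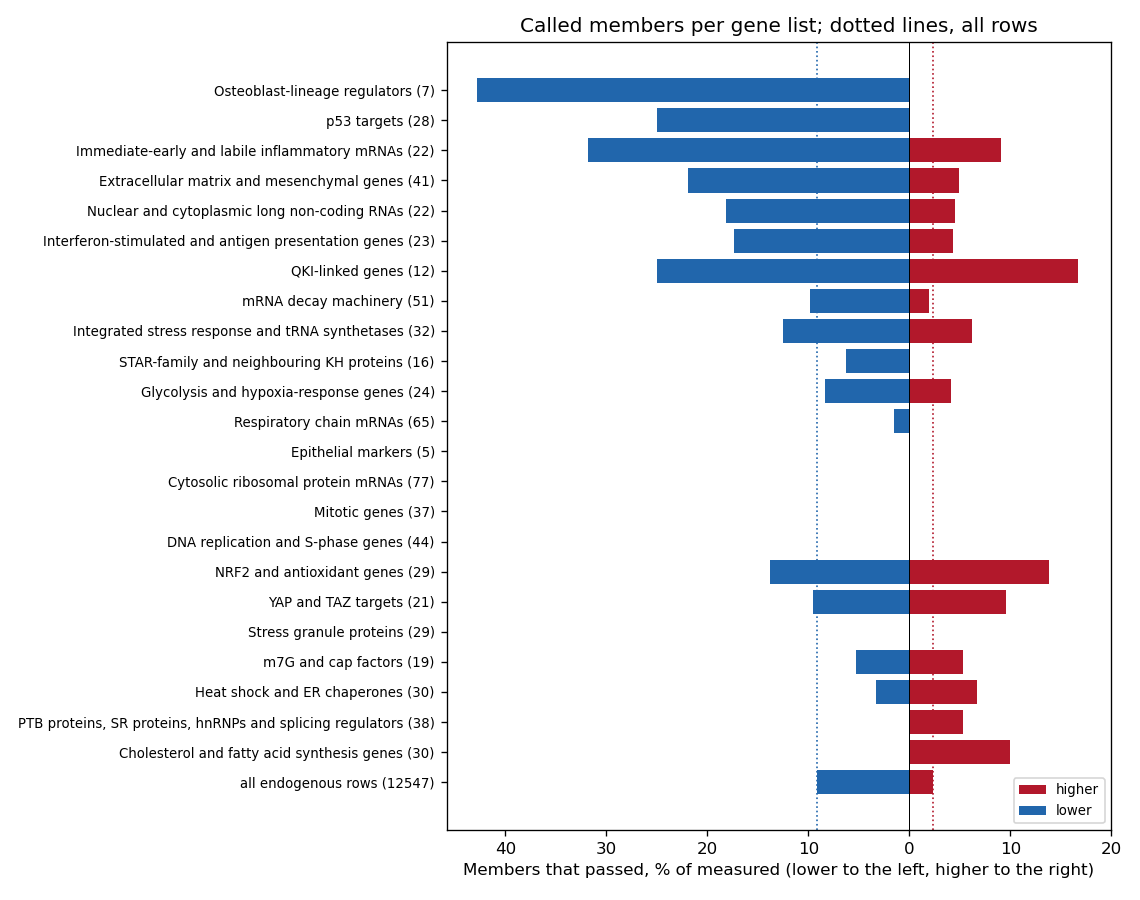
Share of measured members that passed (horizontal axis, %), lower to the left in blue and higher to the right in red, for each gene list (vertical axis, measured members in brackets), with dotted lines at the share over all 12547 rows. Osteoblast regulators, immediate-early mRNAs, p53 targets, QKI-linked genes and matrix genes have the largest shares of members that fell. Replication, mitotic, ribosomal protein and stress granule lists have no member that passed.

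The QKI core element was looked for in annotated 3′ untranslated regions, since the rule that chose the rows did not use sequence. The letters searched were ACTAAC and ACTAAT on the transcript strand, 1 principal transcript per gene, and a half-site was TAAC or TAAT within 20 bases of the core and outside it. A core was found in 58 of 265 genes called higher (21.9%), in 432 of 1009 called lower (42.8%) and in 4137 of all 11304 genes with a region (36.6%). Region lengths moved the same way, with medians of 793 bases for higher, 1582 for lower and 1272 for all genes. Among differences of at least 1.5-fold they went the other way, at 3557 bases in 7 higher and 1209 in 28 lower genes. There a core was found in 2 higher (28.6%) and 14 lower genes (50%). Per kilobase the density was 0.259 in higher, 0.367 in lower and 0.353 in all genes. With a half-site near, the shares were 7.92%, 20% and 17.3%. The part of length in the shares was not tested, and a match is letters in a window, not a bound site.

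Sites of 5 of the 24 rows and of QKI itself are shown, as examples of both directions, with the core in capitals and 12 bases on each side, from GENCODE 29 transcripts on GRCh38. L3HYPDH (chr14:59472848-59472877, minus strand), COL3A1 (chr2:189012409-189012438, plus), BHLHE41 (chr12:26121830-26121859, minus) and FKBP7 (chr2:178464879-178464908, minus) fell and hold 1 core each. PTBP2 (chr1:96815292-96815321, plus) rose and holds 4 cores, of which the one shown has a half-site near. QKI (chr6:163573784-163573813, plus) holds 5 cores, of which 2 have a half-site near, 1 of them shown.
L3HYPDH: ttatacatataaACTAACtctcattctttg
COL3A1: ctggtcaagattACTAATatttgggaaggc
BHLHE41: caccctccacacACTAACatccctttcttc
FKBP7: atcattcttgtcACTAATgatgaatgatca
PTBP2: taaagatttcttACTAATcttagactacct
QKI: taataccaacctACTAACtctggactttgt
The letters ACTAAC stand in L3HYPDH, BHLHE41 and QKI and ACTAAT in COL3A1, FKBP7 and PTBP2. SYNGR1, FLVCR1, KISS1, TNNC1, SAA1, SERPINB7, ANXA8L1, LRRC15, TRADD, DDIT4 and IGFL3 hold no such core in the region searched. HOOK3, which fell, holds 8 cores, of which 2 have a half-site near, and NRG1, which rose, holds 1 core with a half-site near, and their sites are not printed. Core letters were thus present and absent among the rows that moved most in either direction.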

How the data were processed

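PolyA RNA of U2OS cells was measured in 24 libraries, grouped by their titles into 12 groups of 2. Libraries were made with a stranded mRNA kit per the labels' protocols, and STAR, RSEM and the GRCh38 build are named, with no versions, in the submitters' processing notes. The deposited table held 12547 endogenous and 38 ERCC rows. Its values are a linear signal that the authors had scaled to the ERCC rows, as judged from the values; the unit before that step is not given in the sources used here. Depth is therefore unknown, and precision comes from replicate libraries.

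Values were taken as log2(signal + 1). Rows with a signal of at least 1 in at least 2 libraries were kept, which removed no row. Using limma 3.58.1 (R 4.3.3) with its trend option, time (3 levels) and guide were fitted over the 24 libraries, leaving 20 residual and 14.8 prior degrees of freedom, so that the spread between add-backs stayed in the residual. P-values were two-sided and adjusted by the Benjamini-Hochberg method over 12547 rows, with a threshold of 0.05, and a row past it is said to have passed, risen or fallen. Differences between genotypes, between guide genotypes and with time were fitted likewise. Single values were compared by an exact permutation test over 21952 relabellings within times. Fits were tested on simulated data.

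Named rows were QKI, METTL1, WDR4 and G3BP1, the 12 highest and 12 lowest differences among passing rows whose mean signal was 5 or more and whose sign was the same in all 9 guide groups, and up to 4 members of each of 25 gene lists that passed. Others are said to be outside this rule. A few rows that the rule names are counted but not reported here. The members compared and the lists were chosen with earlier results of these data known. Positions are from GENCODE 29 on GRCh38, which held 11958 of the symbols. Alternatives were other scalings, a pseudocount of 0.1, other filters, a model with 12 group means, a replicate term, a fold limit of 1.5, and leaving out each genotype, time and library. Averaging to 4 genotype means and leaving out both QKI7-WT libraries at 4 h were added after the data were seen.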

Additional observations from a re-analysis of the deposited data

Results flagged for a closer look

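The guide difference changed with the hour of chase for COL1A1 (limma F test of the guide-by-time terms, adjusted p = 0.0103), HIST4H4 (0.0208), HIST2H4A (0.046) and MRPL55 (0.046). COL1A1 differed by −0.32 log2 at 0 h, 0.41 at 4 h and −0.54 at 8 h. HIST4H4 differed by −0.12, 0.68 and −0.57, HIST2H4A by 0.04, 0.55 and −0.38, and MRPL55 by 0.09, 0.66 and −0.24 at 0, 4 and 8 h. All 4 were higher than control at 4 h, when both control libraries stood apart. None of these calls was kept without the first control library at 4 h (limma, no row passed, 825 at an unadjusted p under 0.05), without the second (1591) or without the second control library at 8 h (1575).

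The level differed between guide genotypes for 11 of the 24 rows with the largest differences, beside 44.2% of all rows (limma F test within the 18 guide libraries). With the total without ribosomal RNA it differed for 9 of the 24, beside 12.3% of all rows. The adjusted p was 6.44e-09 for SAA1, 1.68e-06 for TNNC1, 1.79e-06 for SERPINB7, 4.16e-06 for NRG1, 1.54e-05 for COL3A1 and 4.53e-05 for FLJ23867. It was 0.000497 for KISS1, 0.000723 for PTBP2, 0.00946 for BHLHE41, 0.0443 for DDIT4 and 0.0488 for ANXA8L1. SAA1 was 1.39 log2 above control in QKI7-dKH, 0.81 in QKI7-WT and 0.43 in sgQKI+EV. FLJ23867 was 1.13 above control in QKI7-dKH, 1.05 in sgQKI+EV and 0.66 in QKI7-WT.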

How the results depend on the processing

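Guide calls (1446, with 292 higher and 1154 lower) became 3114 (1014 and 2100) with the total without ribosomal RNA, 2775 (1169 higher) with the total of all rows, 3642 (1855 and 1787) with quantile normalisation and 3595 (999 and 2596) with 12 group means. They became 924 (721 lower) at a mean of at least 10, 64 (9 and 55) with a fold limit of 1.5, 852 (135 and 717) without 4 h, 618 (413 lower) without 8 h and 132 (20 and 112) with 4 genotype means. Without 0 h 187 were higher. Without sgQKI+EV 793 were higher and 732 lower, without QKI7-dKH 142 and 1766, and without both QKI7-WT 4 h libraries 1734 lower. With the total without ribosomal RNA, guide by time gave 4096, add-back differences 1544 (5542 as deposited), sgQKI+EV 3375 (5735), QKI7-WT 3780 (2022) and QKI7-dKH 4100 (3473). The cause was not tested. Leaving out 1 library gave 887 to 2102 calls (148 to 365 higher, 732 to 1737 lower), 0 to 1888 for guide by time, 3592 to 7670 for add-back differences, 4501 to 6638 for sgQKI+EV, 1322 to 3844 for QKI7-WT and 2554 to 4388 for QKI7-dKH. The lowest totals, 887 and 930, came without either control library at 4 h, and the highest without the first QKI7-WT library at 4 h. In plain means QKI ranged from −0.78 to −0.49 and the log2 total without ribosomal RNA from −0.054 to 0.049, with either sign. The ribosomal RNA difference ranged from −1.63 to 0.12 percentage points, positive without the first control library at 0 h. A left-out library unbalances the times in such plain means, so these ranges mix guide with hour. The time-adjusted limma difference of QKI ranged from −0.70 to −0.53. The total's positive values were 0.037, 0.049, 0.0027, 0.021, 0.024, 0.0092, 0.016, 0.010 and 0.0060. G3BP1, which did not pass, changed sign to −0.013 without 0 h and −0.018 without QKI7-dKH. Of 79 named rows that passed, 59 kept their call whichever library was left out, and none of the 79 changed sign under any setting.

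Replicate numbers did not pair the samples: of 66 pairs of groups, 21 had a correlation of same-numbered deviations over 0.1 and 20 under −0.1. With a replicate block 1419 rows passed (281 higher, 1138 lower), 1404 of them among the 1446, with 6 for guide by time and 5583 for add-back differences, and SRSF7, PTPN14 and HSPE1 had adjusted p of 0.0519, 0.0508 and 0.0521.

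Depth is not known, so low rows cannot be given a counting error. At cell-line level 3 guide genotypes were set against 1 control genotype. The spike-in step fixes the direction of differences shared by most rows, and its basis is not given in the sources used here.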
